A study of Homo sapiens with 6 samples.

Results

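Receptors and ligands of the platelet-derived growth factor (PDGF) family, with the related receptor KIT, were described in SH-SY5Y neuroblastoma cells in which a lentiviral hairpin targeted TARDBP, and in cells with either of 2 control hairpins. The set held 7 of the 27961 genes counted, taken by symbol: the receptors PDGFRA, PDGFRB and KIT and the ligands PDGFA, PDGFB, PDGFC and PDGFD. The genes were selected on their values in these libraries, above all the opposite directions of PDGFRA and PDGFRB with the TARDBP hairpin. Their differences between the TARDBP hairpin and the controls are therefore given as a description, with no test. Differences of these genes between the control hairpins carry adjusted p-values, but the control libraries also took part in the selection. Those p-values are not independent of it and belong to the description. Of the 7 genes, 6 passed the filter on low counts, and PDGFB did not.

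SH-SY5Y is a human neuroblastoma line with features of sympathetic neuroblasts, and TDP-43, the product of TARDBP, binds RNA and controls splicing. The 3 groups were cells with the TARDBP hairpin (TRCN0000016038), cells with control hairpin 2 (SHC016) and cells with control hairpin 1 (SHC007), with 2 libraries each. Cells of all 3 groups were spun with lentivirus and 8 µg/mL polybrene and kept under 2 µg/mL puromycin for 3 days, starting 48 hours after infection, so infection and drug selection were common to every library. Only 1 hairpin sequence was directed at TARDBP, so a loss of TDP-43 and other actions of that sequence cannot be told apart, and it is not stated whether same-hairpin libraries were separate cultures, so p-values measure the spread between these libraries only.

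PDGFs are secreted dimers that bind a pair of receptor tyrosine kinases at the cell surface. PDGFA and PDGFC act mainly through PDGFRA, PDGFD favours PDGFRB, and PDGFB binds both receptors, while KIT, built on the same plan, binds stem cell factor (KITLG). PDGFRA marks mesenchymal and oligodendrocyte precursors, PDGFRB marks pericytes and vascular smooth muscle, and KIT is used by melanocytes and mast cells, so these receptors are read as markers of mesenchymal or neural crest derived states as well as of growth signalling.

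Library totals ran from 18605745 to 21698339 counts. TARDBP itself was counted 365 and 462 times with its hairpin, against 1761 and 1730 for control hairpin 2 and 1587 and 1478 for control hairpin 1. Its log2 fold change against the mean of both controls was -1.93 ± 0.13 (SE, edgeR quasi-likelihood test, adjusted p = 1.68e-05). Across genes and repeat families (not independent points), Pearson's r of log2 CPM was 0.992 to 0.994 within a group and 0.928 to 0.965 between groups. The control hairpins differed from each other in 43.2% of the 17163 genes and repeat families tested, so the 7 genes are given against each control. Other genes are set against the mean of both controls unless a control is named, and where a named gene's call against that mean did not hold against each control alone, this is said beside it.

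Promoter windows of the 3 receptor genes are printed because PDGFRA and KIT are neighbours on chromosome 4 with opposite values. PDGFRA and PDGFRB also differ in direction, while the second of the 2 PDGFRA windows shares a CCAAT match with the PDGFRB window. Only that PDGFRA window is printed, so the sharing holds for the window chosen and not for the first. RefSeq windows on GRCh38.p14, each 300 bases long from 250 bases before to 50 bases after a transcript start, were found for 5 of the 7 genes. They lay at chr4:54233710-54234009 on the plus strand (the second of 2 PDGFRA windows), chr5:150155796-150156095 on the minus strand (PDGFRB) and chr4:54657707-54658006 on the plus strand (KIT). Each is written 5′ to 3′ along the gene, with CCAAT in capitals.
PDGFRA: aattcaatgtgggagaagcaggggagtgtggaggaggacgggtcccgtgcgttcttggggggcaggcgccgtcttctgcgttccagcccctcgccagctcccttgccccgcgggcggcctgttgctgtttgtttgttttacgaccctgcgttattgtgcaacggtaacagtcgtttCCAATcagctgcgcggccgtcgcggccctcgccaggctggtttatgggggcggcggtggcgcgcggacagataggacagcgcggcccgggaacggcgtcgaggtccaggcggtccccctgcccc
PDGFRB: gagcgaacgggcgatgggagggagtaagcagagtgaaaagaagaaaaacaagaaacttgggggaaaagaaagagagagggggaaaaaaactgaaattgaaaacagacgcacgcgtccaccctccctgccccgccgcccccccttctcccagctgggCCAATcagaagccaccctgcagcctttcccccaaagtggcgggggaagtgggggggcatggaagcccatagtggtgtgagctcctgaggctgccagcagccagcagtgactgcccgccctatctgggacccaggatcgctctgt
KIT: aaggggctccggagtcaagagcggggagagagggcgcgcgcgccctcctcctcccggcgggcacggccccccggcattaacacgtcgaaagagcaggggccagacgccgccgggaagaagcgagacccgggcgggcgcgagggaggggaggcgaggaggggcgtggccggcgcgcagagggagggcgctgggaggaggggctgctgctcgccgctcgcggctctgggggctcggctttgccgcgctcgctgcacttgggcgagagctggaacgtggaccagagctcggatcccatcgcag

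CCAAT, searched on both strands, occurred once in this PDGFRA window, 74 bases before the start, and once in the PDGFRB window, 94 bases before the start. It was not among the letters of the KIT window or of the first PDGFRA window. Among the PDGFA windows, the third also held CCAAT, 137 bases before the start, and the others did not. In the matching PDGFRA and PDGFRB windows the next letters were the same, giving CCAATCAG, a run singled out after the letters were seen. CCAAT was found in 34.6% of the 35116 windows of the reference, and CCAATCAG in 3.97% of them. The GC box GGGCGG, also searched on both strands, occurred 2 times in the printed PDGFRA window and 0 times in the first PDGFRA window. It occurred 2 times in the PDGFRB window and once in the KIT window, and was found in 45% of all windows. TATAAA, found in 11.5% of all windows on either strand, was absent from the letters of the receptor windows. These matches describe the letters only.

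PDGFRA, the receptor for PDGFA and PDGFC, stood higher in every TARDBP-hairpin library than in any control library. It had 112 and 142 CPM (depth-normalised counts, scaled by the TMM factors) with the TARDBP hairpin, against 43.2 and 46.6 CPM with control hairpin 2 and 27.8 and 26.2 CPM with control hairpin 1. The 3 groups did not overlap, and control hairpin 2 lay between the other two. In a bulk sample, more cells with a transcript and more transcript per cell cannot be told apart.

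The PDGFRA mean was 127 ± 21.0 CPM with the TARDBP hairpin, 44.9 ± 2.42 CPM with control hairpin 2 and 27.0 ± 1.16 CPM with control hairpin 1 (SD, n = 2 each). Its log2 fold change was 1.50 ± 0.12 (SE) against control hairpin 2 and 2.23 ± 0.13 against control hairpin 1, which is 2.83-fold and 4.70-fold. These comparisons share the TARDBP-hairpin libraries. Against the mean of both controls the log2 fold change was 1.87 ± 0.10, and 297 of the 16202 genes tested had a higher value. It was 2.02 without TARDBP-hairpin replicate 1 and 1.69 without TARDBP-hairpin replicate 2, so the size depended on the library kept and the direction did not.

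PDGFRB, the receptor for PDGFB and PDGFD, stood lower in both TARDBP-hairpin libraries than in all 4 control libraries. It had 12.9 and 14.4 CPM with the TARDBP hairpin, against 52.9 and 61.7 CPM with control hairpin 2 and 35.7 and 36.5 CPM with control hairpin 1. The groups did not overlap, and the highest values were those of control hairpin 2. Its mean was 13.7 ± 1.03 CPM with the TARDBP hairpin, 57.3 ± 6.23 CPM with control hairpin 2 and 36.1 ± 0.56 CPM with control hairpin 1 (SD, n = 2 each). The log2 fold change was -2.07 ± 0.12 (SE) against control hairpin 2 and -1.40 ± 0.12 against control hairpin 1. Against the mean of both controls it was -1.74 ± 0.11, a level of 30.0% of the controls, and 453 of the 16202 genes tested had a lower value.

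The control hairpins also differed at both receptors, and there the receptors moved the same way. PDGFRA rose with control hairpin 2 relative to control hairpin 1 by a log2 fold change of 0.73 ± 0.13 (SE, edgeR adjusted p = 0.00251, higher in 2 of 2 libraries), and PDGFRB rose by 0.67 ± 0.11 (edgeR adjusted p = 0.00217, higher in 2 of 2 libraries). Over the alternative fits the adjusted p reached at most 0.0192 for PDGFRA and 0.0207 for PDGFRB. The log2 ratio of PDGFRA counts to PDGFRB counts averaged 3.21 ± 0.13 with the TARDBP hairpin, -0.35 ± 0.08 with control hairpin 2 and -0.42 ± 0.08 with control hairpin 1 (SD, n = 2 each). The control groups differed in this ratio by less than their SDs, and the TARDBP-hairpin libraries lay above all 4 control libraries.

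Per kb of exon (GENCODE v29 exon lengths, which may differ from the annotation used for counting), PDGFRA made up 86.3% and 87.8% of the summed level of the 2 PDGF receptors with the TARDBP hairpin. It made up 37.2% and 35.4% for control hairpin 2 and 36.2% and 34.3% for control hairpin 1. The summed receptor level was 16.5 and 20.5 CPM per kb with the TARDBP hairpin, 14.7 and 16.7 for control hairpin 2 and 9.78 and 9.71 for control hairpin 1. The sum overlapped between the TARDBP hairpin and control hairpin 2, while the share did not.

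**Figure D1:**
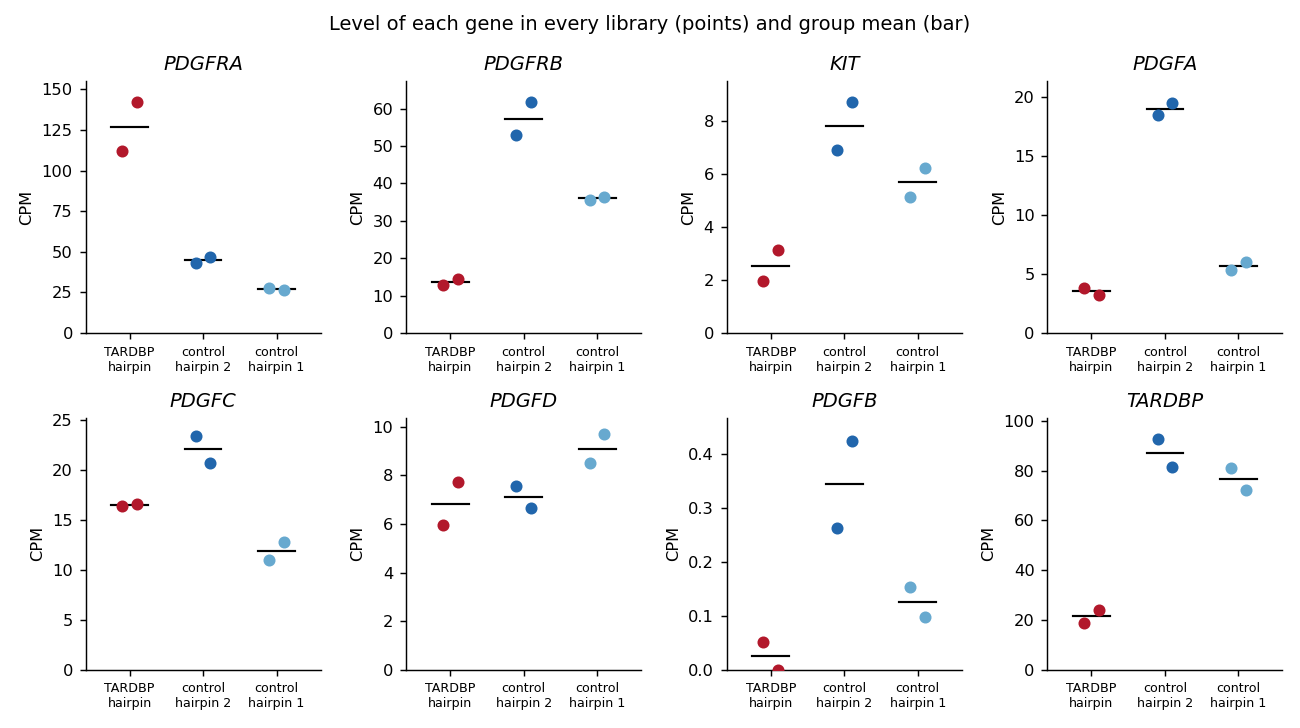
Level in CPM (vertical axes, from 0, each with its own scale) of the 7 genes and of TARDBP in each library, with the TARDBP hairpin at the left of each panel, then control hairpin 2 and control hairpin 1; points are libraries and bars are means. PDGFRA is at 112 and 142 CPM with the TARDBP hairpin and at most 46.6 CPM in the controls, while PDGFRB, KIT and PDGFA are lowest with the TARDBP hairpin.

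KIT, the receptor for stem cell factor, was a low-level transcript and was lower with the TARDBP hairpin. Its counts were 38 and 60 in the TARDBP-hairpin libraries, against 131 and 185 for control hairpin 2 and 101 and 127 for control hairpin 1. Its level was 2.54 ± 0.81 CPM with the TARDBP hairpin, 7.81 ± 1.29 CPM with control hairpin 2 and 5.68 ± 0.76 CPM with control hairpin 1 (SD, n = 2 each). Both TARDBP-hairpin libraries lay below all 4 control libraries, and the control groups did not overlap. The log2 fold change was -1.62 ± 0.25 (SE) against control hairpin 2, -1.16 ± 0.26 against control hairpin 1 and -1.39 ± 0.23 against the mean of both. The last value was -1.10 without TARDBP-hairpin replicate 1 and -1.76 without TARDBP-hairpin replicate 2. Between the control hairpins, KIT differed by a log2 fold change of 0.46 ± 0.23 that did not pass the test (edgeR adjusted p = 0.133). The count ratio of KIT to PDGFRA had a geometric mean of 0.0196 with the TARDBP hairpin, 0.173 with control hairpin 2 and 0.210 with control hairpin 1.

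PDGFA, a ligand of PDGFRA, was the gene whose value against the controls depended most on which control was used. It had 3.83 and 3.22 CPM with the TARDBP hairpin, against 18.5 and 19.5 CPM with control hairpin 2 and 5.30 and 5.97 CPM with control hairpin 1. Control hairpin 2 stood apart as the high group, and the TARDBP-hairpin libraries were the lowest without overlap. The mean was 3.52 ± 0.43 CPM with the TARDBP hairpin, 19.0 ± 0.73 CPM with control hairpin 2 and 5.64 ± 0.48 CPM with control hairpin 1 (SD, n = 2 each). The log2 fold change with the TARDBP hairpin was -2.43 ± 0.16 (SE) against control hairpin 2 and -0.68 ± 0.17 against control hairpin 1. PDGFA rose with control hairpin 2 relative to control hairpin 1 by 1.75 ± 0.15 (edgeR adjusted p = 1.01e-04, higher in 2 of 2 libraries), which was the largest difference between the controls among the 6 tested genes.

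PDGFC, the other PDGFRA ligand, lay between the controls with the TARDBP hairpin. It had 16.3 and 16.6 CPM with the TARDBP hairpin, against 23.4 and 20.7 CPM with control hairpin 2 and 11.0 and 12.7 CPM with control hairpin 1, with no overlap between the groups. Its log2 fold change was -0.42 ± 0.13 (SE) against control hairpin 2 and 0.47 ± 0.13 against control hairpin 1, so the direction turned with the control. The value against the mean of both, 0.03 ± 0.11, stands for neither. Between the control hairpins PDGFC rose with control hairpin 2 by 0.89 ± 0.13 (edgeR adjusted p = 0.00117, higher in 2 of 2 libraries).

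PDGFD, which acts mainly through PDGFRB, had 5.95 and 7.74 CPM with the TARDBP hairpin, against 7.58 and 6.64 CPM with control hairpin 2 and 8.51 and 9.70 CPM with control hairpin 1. The TARDBP-hairpin libraries overlapped those of control hairpin 2 and lay below those of control hairpin 1. The log2 fold change was -0.05 ± 0.18 (SE) against control hairpin 2 and -0.41 ± 0.18 against control hairpin 1. Leaving out 1 library at a time moved the value against control hairpin 2 between -0.26 and 0.12. The control hairpins differed by -0.36 ± 0.18, which did not pass the test (edgeR adjusted p = 0.137).

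PDGFB, the ligand of both receptors, was near the limit of detection. Its counts were 1 and 0 in the TARDBP-hairpin libraries, 5 and 9 for control hairpin 2 and 3 and 2 for control hairpin 1. The group sums were 1 count with the TARDBP hairpin (95% exact Poisson interval 0.0253 to 5.57), 14 counts with control hairpin 2 (7.65 to 23.5) and 5 counts with control hairpin 1 (1.62 to 11.7). The intervals cover counting error only, and that of control hairpin 1 overlaps both others. A library with 0 counts allows up to 3 counts, which was 0.156 CPM in the TARDBP-hairpin library concerned.

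Per kb of exon, PDGFC was the most abundant ligand with the TARDBP hairpin and PDGFA with control hairpin 2. PDGFC made up 56.0% and 55.0% of the summed level of the 4 ligands with the TARDBP hairpin, against 36.6% and 33.3% for control hairpin 2 and 37.7% and 38.3% for control hairpin 1. PDGFA made up 23.0% and 18.7% with the TARDBP hairpin, against 50.8% and 55.0% for control hairpin 2 and 31.9% and 31.5% for control hairpin 1. The summed ligand level was 7.01 and 7.23 CPM per kb with the TARDBP hairpin, 15.3 and 14.9 for control hairpin 2 and 7.01 and 7.98 for control hairpin 1. The TARDBP hairpin and control hairpin 1 thus overlapped in the sum, and control hairpin 2 was higher than both.

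Ordered by level per kb, the 7 genes ran differently with the TARDBP hairpin than with either control. With the TARDBP hairpin PDGFRA came first at 16.1 CPM per kb, followed by PDGFC at 3.95, PDGFRB at 2.39, PDGFD at 1.68, PDGFA at 1.48, KIT at 0.49 and PDGFB at 0.00728. With control hairpin 2 PDGFRB came first at 10.0, followed by PDGFA at 8.00, PDGFRA at 5.70, PDGFC at 5.29, PDGFD at 1.75, KIT at 1.51 and PDGFB at 0.0967. With control hairpin 1 the order was PDGFRB at 6.31, PDGFRA at 3.43, PDGFC at 2.85, PDGFA at 2.37, PDGFD at 2.24, KIT at 1.10 and PDGFB at 0.0353. Neighbours in these orders whose libraries overlapped were PDGFD and PDGFA with the TARDBP hairpin, PDGFRA and PDGFC as well as PDGFD and KIT with control hairpin 2, and PDGFA and PDGFD with control hairpin 1.

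**Figure D2:**
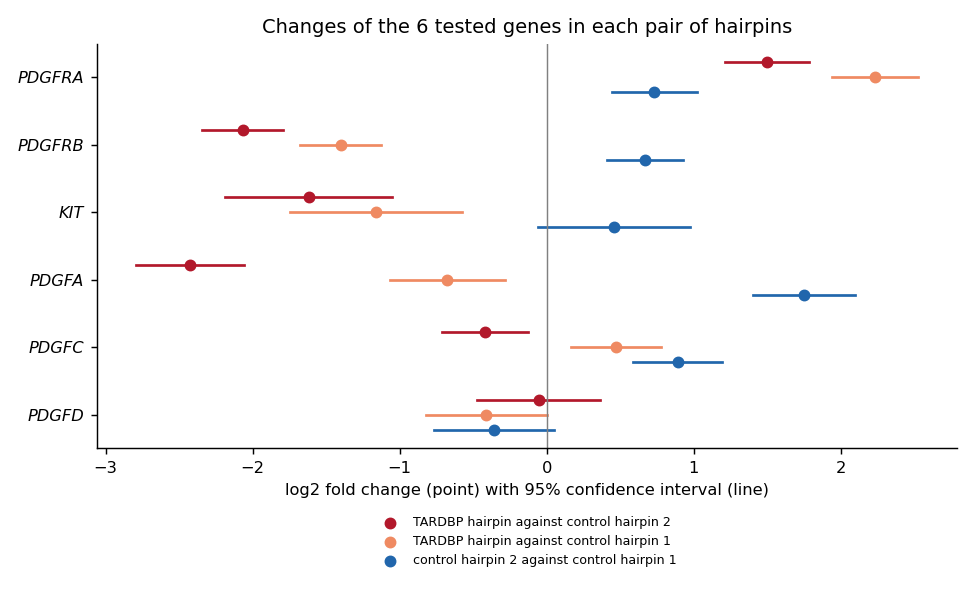
Log2 fold change (horizontal axis) of the 6 tested genes with 95% confidence interval, for the TARDBP hairpin against control hairpin 2 (dark red), the TARDBP hairpin against control hairpin 1 (orange) and control hairpin 2 against control hairpin 1 (blue). PDGFRA lies above 0 and PDGFRB, KIT and PDGFA lie below 0 against both controls, while PDGFC changes side with the control.

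Differences of this kind were common in these libraries. Of all genes and families tested, 23.9% passed an adjusted p of 0.05 as higher with the TARDBP hairpin than the mean of both controls and 24.3% as lower (48.2% in all). Against control hairpin 2 alone 24% passed as higher and 26.2% as lower (50.2% together), and against control hairpin 1 alone 21.1% and 21.8% (42.9% together). Between the control hairpins, PDGFRA, PDGFRB, PDGFA and PDGFC rose with control hairpin 2 and 0 of the 6 fell (edgeR), where 22.8% of all genes and families rose and 20.4% fell. The 6 genes were selected with the values of these libraries known, so this count is a description. The median log2 fold change of the 6 genes there was 0.70, against -0.01 over all genes and families tested. Without control hairpin 1 replicate 1 the calls between the controls numbered 4328 of all genes and families in place of 7418, and without control hairpin 2 replicate 2 they numbered 4339.

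Among 58 receptor tyrosine kinase genes, ranked by level per kb within each library, PDGFRA was 9th and 5th with the TARDBP hairpin, 14th in both libraries of control hairpin 2 and 20th in both libraries of control hairpin 1. PDGFRB was 21st and 20th with the TARDBP hairpin, 11th and 10th with control hairpin 2 and 15th in both libraries of control hairpin 1. KIT was 35th and 29th with the TARDBP hairpin, 27th and 26th with control hairpin 2 and 26th in both libraries of control hairpin 1. PDGFRA thus ranked above PDGFRB in both TARDBP-hairpin libraries and below it in all 4 control libraries. Of the 44 such genes that were tested, PDGFRA had the highest log2 fold change against the mean of both controls, PDGFRB the 42nd highest and KIT the 39th.

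**Figure D3:**
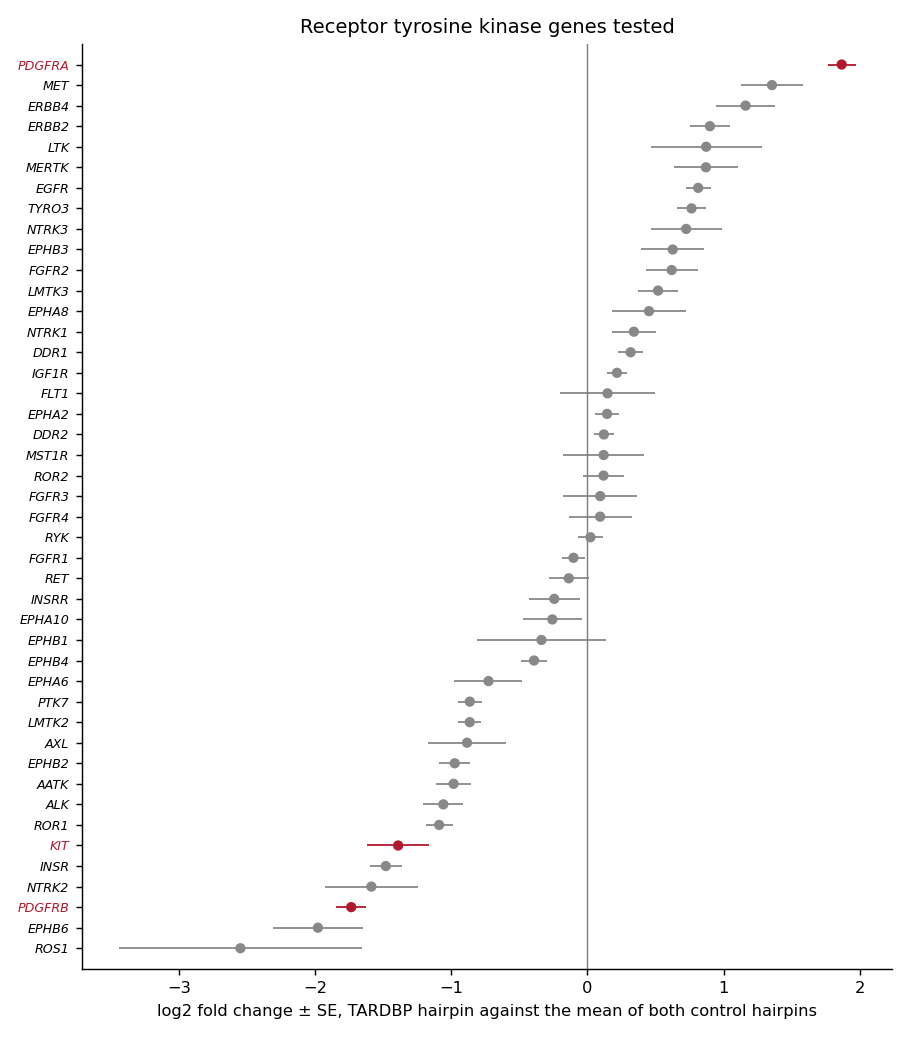
Log2 fold change with SE (horizontal axis) of 44 receptor tyrosine kinase genes with the TARDBP hairpin against the mean of both control hairpins, sorted from highest at the top; PDGFRA, KIT and PDGFRB are in red. PDGFRA is at the top at 1.87 and PDGFRB is near the bottom at -1.74.

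The other 41 of these receptors moved in both directions. Against the mean of both controls 11 rose and 13 fell (edgeR, adjusted p below 0.05), with a median log2 fold change of 0.09 over the 41, against 0.04 over all genes and families tested. Of all genes and families tested, 23.9% rose and 24.3% fell against that mean, and 10.6% and 14% did so against each control alone. The list counts below are to be set beside the same shares, except where another comparison or fit is named. Against each control taken alone, EGFR, the epidermal growth factor receptor (log2 fold change 0.81 ± 0.09 against the mean of both, SE), ERBB4, a neuregulin receptor (1.16 ± 0.22), and TYRO3 (0.76 ± 0.11) and MERTK (0.87 ± 0.23), which bind GAS6, rose (edgeR), and 7 fell, among them INSR, the insulin receptor (-1.48 ± 0.12), and ROR1 (-1.09 ± 0.10). The number that rose was lower without either TARDBP-hairpin library and without either library of control hairpin 2. In the same fits fewer of all genes and families passed as higher too, so this drop was not particular to the receptors. MERTK was no longer past the threshold without TARDBP-hairpin replicate 2 (edgeR adjusted p = 0.203).

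KITLG, the ligand of KIT, was highest where KIT was lowest. It had 174 and 159 CPM with the TARDBP hairpin, against 126 and 80.7 CPM with control hairpin 2 and 56.9 and 68.8 CPM with control hairpin 1. All 3 groups were apart, with the TARDBP hairpin highest. Between the control hairpins the 2 genes were not opposed, as KIT and KITLG both stood higher with control hairpin 2. The KITLG difference there was 0.72 ± 0.19 on the log2 scale (SE, edgeR adjusted p = 0.0171). KITLG rose by a log2 fold change of 0.69 ± 0.19 (SE, edgeR adjusted p = 0.0166) against control hairpin 2 and by 1.41 ± 0.19 (edgeR adjusted p = 6.71e-04) against control hairpin 1. Among the 7 close relatives of these receptors and their ligands, 4 were tested, 2 rose and 1 fell against the mean of both controls, with a median of 0.31. FLT3LG, the FLT3 ligand, rose by 0.89 ± 0.23 (edgeR adjusted p = 0.0128), a call lost without either TARDBP-hairpin library (adjusted p up to 0.0656) and with DESeq2, and it did not pass against control hairpin 1 alone (0.72 ± 0.27, edgeR adjusted p = 0.0603). CSF1, the ligand of CSF1R, fell by 0.27 ± 0.09 on the log2 scale (edgeR adjusted p = 0.0356), a call lost on leaving out any of 5 libraries. CSF1 did not pass against control hairpin 2 alone (-0.09 ± 0.10, edgeR adjusted p = 0.502). The receptors FLT3, with 0 counts in all 6 libraries, and CSF1R, with 3 to 7 counts, were not tested.

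Genes that process PDGFs or bind them outside the cell moved in both directions with the TARDBP hairpin. Of 12 listed, 10 were tested, and against the mean of both controls 3 rose and 5 fell (edgeR), with a median log2 fold change of -0.51. The proprotein convertases FURIN, PCSK6 and PCSK7, of which FURIN is known to cut the PDGFA and PDGFB precursors, fell by 1.36 ± 0.10, 1.65 ± 0.22 and 0.79 ± 0.08 on the log2 scale (SE, edgeR adjusted p = 3.16e-05, 4.78e-04 and 1.71e-04). All 3 fell against each control alone, PCSK6 by 2.38 ± 0.23 against control hairpin 2 and by 0.93 ± 0.25 against control hairpin 1. PLAT, tissue plasminogen activator, which cuts PDGFC to its active form, had 43.7 and 48.4 CPM with the TARDBP hairpin, against 29.3 and 30.0 CPM with control hairpin 2 and 10.0 and 11.4 CPM with control hairpin 1. PLAT rose by 1.37 ± 0.09 against the mean of both (edgeR adjusted p = 2.18e-05).

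SPARC, a matrix protein that binds PDGF dimers holding the B chain, had the largest fall of the list. It had 57.9 and 54.8 CPM with the TARDBP hairpin, against 677 and 608 CPM with control hairpin 2 and 274 and 268 CPM with control hairpin 1, and the groups did not overlap. It fell by 2.89 ± 0.09 on the log2 scale against the mean of both controls (SE, edgeR adjusted p = 1.73e-06). HSPG2, the matrix proteoglycan perlecan, fell by 1.24 ± 0.13 (edgeR adjusted p = 1.58e-04), and NRP1, a coreceptor, rose by 0.56 ± 0.08 (edgeR adjusted p = 6.53e-04), both also against each control alone. THBS1 turned with the control, with -0.75 ± 0.17 against control hairpin 2 and 2.36 ± 0.19 against control hairpin 1. Between the control hairpins 7 of the 10 rose with control hairpin 2 and 0 fell (edgeR), with a median of 0.98, where 22.8% of all genes and families rose and 20.4% fell.

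Carriers of the receptor signal also moved in both directions. Of 37 adaptors, kinases and transcription factors, all tested, 9 rose and 17 fell against the mean of both controls (edgeR), with a median log2 fold change of -0.18. Against each control taken alone 4 rose, SOS2, GAB1 and MAPK3 among them, and 16 fell. For all genes and families these shares were 10.6% and 14%. GAB2, an adaptor of phosphatidylinositol 3-kinase and SHP2 signalling, had the largest fall, of 1.96 ± 0.09 on the log2 scale (SE, edgeR adjusted p = 5.58e-06). The Src family kinase YES1 fell by 1.42 ± 0.10 (edgeR adjusted p = 2.36e-05) and the GTPase NRAS by 1.11 ± 0.09 (edgeR adjusted p = 3.80e-05). The fall of NRAS was 1.88 ± 0.10 against control hairpin 2 and 0.34 ± 0.10 against control hairpin 1 (edgeR adjusted p = 0.0217). AKT1, a kinase downstream of phosphatidylinositol 3-kinase, fell by 0.79 ± 0.08 (edgeR adjusted p = 1.21e-04). MAPK3, the kinase ERK1, rose by 0.84 ± 0.14 (edgeR adjusted p = 0.00147).

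Genes that dampen receptor signalling were also divided. Of 20 listed, 19 were tested, and 4 rose and 9 fell against the mean of both controls (edgeR), with a median log2 fold change of -0.16. SPRY1, an inhibitor of the Ras pathway, had 61.2 and 70.9 CPM with the TARDBP hairpin, against 35.7 and 37.8 CPM with control hairpin 2 and 9.53 and 12.7 CPM with control hairpin 1. It rose by 1.71 ± 0.12 (SE, edgeR adjusted p = 2.17e-05), as did SPRED1, another Ras pathway inhibitor (0.81 ± 0.08, edgeR adjusted p = 8.78e-05), and CBL, the ubiquitin ligase that marks activated receptors for breakdown (0.81 ± 0.07, edgeR adjusted p = 6.48e-05). DUSP5, a nuclear ERK phosphatase, fell by 2.23 ± 0.21 (edgeR adjusted p = 9.79e-05). SPRY1, SPRED1, CBL and DUSP5 passed in the same direction against each control alone. INPP5D, an inositol phosphatase, turned with the control, with 24.3 and 21.0 CPM with the TARDBP hairpin, 3.53 and 4.43 CPM for control hairpin 2 and 29.9 and 30.6 CPM for control hairpin 1.

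With all 4 control libraries pooled as 1 group, 1 ligand-handling gene, 2 signal carriers, 1 brake and 3 of the other receptors rose. In that fit 11 signal carriers, 4 brakes and 4 of the other receptors fell. These counts are to be set beside the 1054 that rose and the 1518 that fell in the same fit, of 17163 genes and families tested. The ligand-handling genes SPARC, FURIN, HSPG2 and PCSK7 kept their calls as lower. KITLG, FLT3LG, CSF1, PLAT, PCSK6, THBS1, GAB1, NRAS, SPRY1, CBL, INPP5D, MERTK and INSR were among the genes that lost their calls in that fit.

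**Figure D4:**
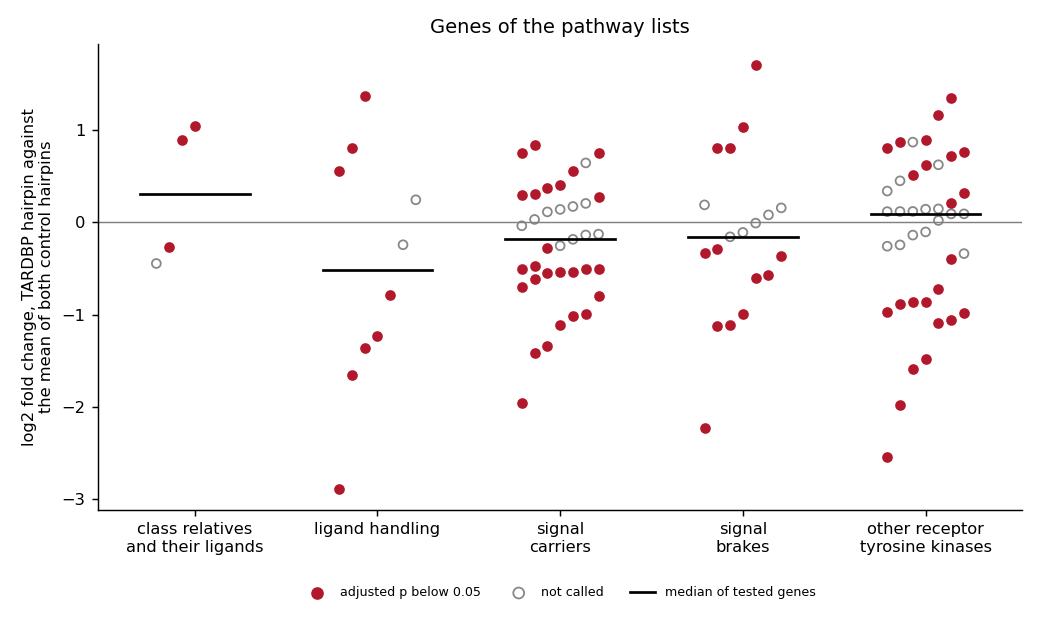
Log2 fold change (vertical axis) of each tested gene of 5 pathway lists with the TARDBP hairpin against the mean of both control hairpins; filled red points passed an adjusted p of 0.05, open points did not, and the black bar is the median of the list. Each list holds genes on both sides of 0, and the medians run from -0.51 for ligand handling to 0.31 for the relatives of the receptors.

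PDGFRA and KIT lie next to each other, and their neighbours did not share 1 direction. Gene order was taken from the RefSeq annotation of GRCh38.p14, and the counts were made on hg19. In order along the chromosome, the 4 protein-coding genes before PDGFRA were FIP1L1, LNX1, CHIC2 and GSX2, and the 4 after KIT were KDR, SRD5A3, TMEM165 and CLOCK. FIP1L1 rose by 0.39 ± 0.08 (SE, edgeR adjusted p = 0.00402) and CLOCK by 0.26 ± 0.08 (edgeR adjusted p = 0.0291) on the log2 scale against the mean of both controls. CHIC2 fell by 0.85 ± 0.15 (edgeR adjusted p = 0.00183), SRD5A3 by 0.82 ± 0.15 (edgeR adjusted p = 0.00250) and TMEM165 by 0.65 ± 0.09 (edgeR adjusted p = 6.76e-04). LNX1 did not pass the test (-0.34 ± 0.44, edgeR adjusted p = 0.559), GSX2 had 0 counts, and KDR was too low to be tested. The median of the 6 tested neighbours was -0.49, against 1.87 for PDGFRA and -1.39 for KIT. The calls for SRD5A3 and CLOCK held against control hairpin 2 and not against control hairpin 1, where SRD5A3 was at -0.27 ± 0.17 (edgeR adjusted p = 0.248) and CLOCK at 0.05 ± 0.10 (edgeR adjusted p = 0.689). The call for CLOCK was lost on leaving out any of 5 libraries, and those for CLOCK, FIP1L1 and SRD5A3 with the controls pooled.

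Around PDGFRB, 4 of 8 neighbours were tested. SLC26A2, a sulphate transporter, rose by 0.79 ± 0.08 (SE, edgeR adjusted p = 1.67e-04), and HMGXB3 fell by 0.24 ± 0.08 (edgeR adjusted p = 0.0348), a call lost on leaving out any of 4 libraries and not reached against control hairpin 2 alone (-0.21 ± 0.09, edgeR adjusted p = 0.0846). TIGD6 (0.43 ± 0.16, edgeR adjusted p = 0.0574) and CAMK2A (-1.30 ± 0.59, edgeR adjusted p = 0.112) did not pass. CAMK2A turned with the control, with 0.36 ± 0.76 against control hairpin 2 (edgeR adjusted p = 0.756) and a fall of 2.96 ± 0.48 against control hairpin 1 (edgeR adjusted p = 0.0015), where PDGFRB was at -1.40. The calls for SLC26A2 and HMGXB3 were lost with the controls pooled. The median of the 4, with CAMK2A among them, was 0.10, against -1.74 for PDGFRB.

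**Figure D5:**
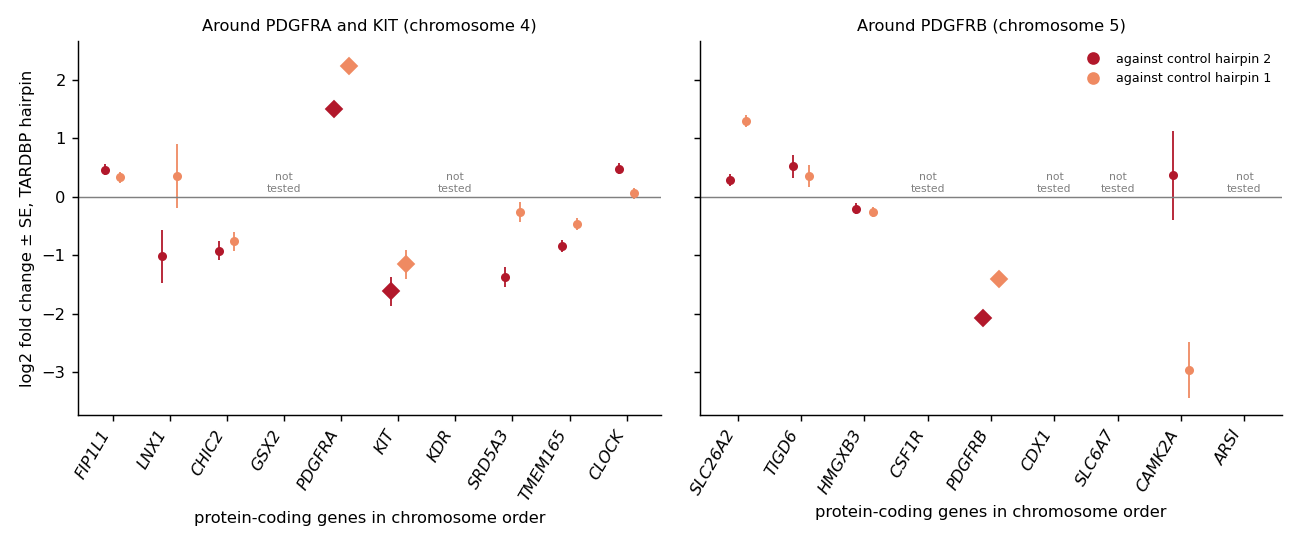
Log2 fold change with SE (vertical axis) of the protein-coding genes around PDGFRA with KIT and around PDGFRB, in chromosome order, with the TARDBP hairpin against control hairpin 2 (dark red) and against control hairpin 1 (orange); diamonds are the receptor genes. PDGFRA stands above its neighbours against both controls, and PDGFRB stands below its tested neighbours against control hairpin 2 but above CAMK2A against control hairpin 1. CAMK2A was near the limit of detection in the groups other than control hairpin 1.

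The genes with the log2 CPM profiles most like that of PDGFRA over the 6 libraries, by root mean square distance after centring, were MFAP4 (0.170), SETBP1 (0.185), TP53TG1 (0.192), THAP2 (0.204) and DNM3 (0.205), out of 10130 candidates. MFAP4, which encodes a matrix protein, averaged 175 CPM with the TARDBP hairpin, 71.6 CPM with control hairpin 2 and 43.9 CPM with control hairpin 1. Those nearest to PDGFRB were NXT2 (0.0743), BRCA1 (0.0778), RCC2 (0.0816), COLEC11 (0.0819) and SERPINH1 (0.107). SERPINH1, a collagen chaperone, averaged 46.3 CPM with the TARDBP hairpin, 214 CPM with control hairpin 2 and 142 CPM with control hairpin 1. These genes were selected for their likeness over the same libraries, so no test is given.

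Markers of cell types that use these receptors moved in both directions. Of 11 markers of pericytes and vascular smooth muscle, where PDGFRB is used, 9 were tested, and against the mean of both controls NOTCH3, RGS5 and MCAM rose and KCNJ8 and CNN1 fell (edgeR). Against each control alone NOTCH3 rose and KCNJ8 fell, while RGS5 (0.16 ± 0.14) and MCAM (0.14 ± 0.16) did not pass against control hairpin 2 (edgeR adjusted p = 0.385 and 0.501) and CNN1 (0.06 ± 0.48) did not pass against control hairpin 1 (edgeR adjusted p = 0.939). TAGLN turned with the control, with -1.53 ± 0.32 against control hairpin 2 and 1.88 ± 0.33 against control hairpin 1. Their summed level was 3339 and 3544 CPM with the TARDBP hairpin, 3516 and 3538 CPM with control hairpin 2 and 1394 and 1922 CPM with control hairpin 1, with DES under 10 counts in every library. RGS5 made up most of this sum, in which PDGFRB is not included. Without RGS5, a choice made after the values were seen, the sum was 627 and 531 CPM with the TARDBP hairpin, 880 and 1046 CPM with control hairpin 2 and 223 and 325 CPM with control hairpin 1. The TARDBP hairpin overlapped control hairpin 2 with RGS5 in the sum and lay below it without RGS5. The call for CNN1 was lost on leaving out any of 4 libraries, and those for RGS5, MCAM and CNN1 with the controls pooled.

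Of 10 fibroblast markers, 9 were tested, and DCN rose while COL3A1, COL1A1, COL1A2, LUM and FAP fell (edgeR). DCN rose by 2.43 ± 0.23 on the log2 scale (SE, edgeR adjusted p = 8.68e-05), and COL3A1 fell by 4.65 ± 0.12 (edgeR adjusted p = 6.57e-07). The summed level was 217 and 219 CPM with the TARDBP hairpin, 1861 and 1995 CPM with control hairpin 2 and 1476 and 1504 CPM with control hairpin 1, and POSTN was under 10 counts in every library. COL3A1 made up most of the sum in the controls. Without COL3A1, left out after the values were seen, the sum was 165 and 155 CPM with the TARDBP hairpin, 278 and 343 CPM with control hairpin 2 and 155 and 198 CPM with control hairpin 1, so that the TARDBP hairpin overlapped control hairpin 1. FAP did not pass against control hairpin 1 alone (-0.30 ± 0.20, edgeR adjusted p = 0.248). Between the control hairpins 7 of the 9 rose with control hairpin 2 and 0 fell, where 22.8% of all genes and families rose and 20.4% fell. The calls for COL1A1, LUM and FAP were lost with the controls pooled. The part of these markers in the receptor values was not tested.

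Of 9 markers of oligodendrocyte and Schwann cell precursors, of which the oligodendrocyte ones carry PDGFRA, OLIG1, OLIG2 and FOXD3 had 0 counts in all 6 libraries and SOX10, S100B and GPR17 were under 10 counts in each. Their summed level was 2.95 and 3.17 CPM with the TARDBP hairpin, 2.42 and 1.65 CPM with control hairpin 2 and 2.14 and 2.55 CPM with control hairpin 1. Of 6 mast cell markers, all were under 10 counts in every library, and TPSAB1, CPA3 and HDC were at 0, with summed levels of at most 0.310 CPM. Of 6 melanocyte markers, TYR, MLANA and TYRP1 were under 10 counts in every library, and the summed level was 12.7 and 15.3 CPM with the TARDBP hairpin, 7.69 and 9.19 CPM with control hairpin 2 and 9.18 and 9.50 CPM with control hairpin 1. DCT had 4.14 and 7.01 CPM with the TARDBP hairpin, against 0.316 and 0.471 CPM with control hairpin 2 and 0.918 and 0.588 CPM with control hairpin 1, and it rose by 3.34 ± 0.31 on the log2 scale (SE, edgeR adjusted p = 8.31e-05). MITF (0.05 ± 0.14, edgeR adjusted p = 0.767) and PMEL (-0.38 ± 0.28, edgeR adjusted p = 0.289) did not pass. Without DCT, left out after the values were seen, the melanocyte sum was 8.54 and 8.31 CPM with the TARDBP hairpin, 7.37 and 8.72 CPM with control hairpin 2 and 8.26 and 8.91 CPM with control hairpin 1, and all 3 groups overlapped. Of 6 endothelial markers, CDH5 was at 0 and PECAM1, CLDN5, TIE1 and EMCN were under 10 counts in every library, while VWF fell (edgeR), a call lost without TARDBP-hairpin replicate 1, with summed levels of 0.155 and 0.312 CPM with the TARDBP hairpin, 1.37 and 0.801 CPM with control hairpin 2 and 1.07 and 1.22 CPM with control hairpin 1.

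Of 9 markers of sympathetic neuroblasts, the known identity of the line, 8 were tested and TH was under 10 counts in every library. Their summed level was 914 and 828 CPM with the TARDBP hairpin, 1233 and 1419 CPM with control hairpin 2 and 1824 and 2029 CPM with control hairpin 1, without overlap. Against the mean of both controls 7 fell, among them CHGB, CHGA, DBH and PHOX2A, and GATA3 rose (edgeR). The call for GATA3 was lost without TARDBP-hairpin replicate 1 and with the controls pooled. GATA3 did not pass against control hairpin 1 alone (edgeR adjusted p = 0.218). Of the 7 that fell, 5 did so against each control alone. The order of this sum over the 3 groups was the reverse of the order of PDGFRA, also with HAND2, the most abundant of them, left out, and its part in the receptor values was not tested.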

How the data were processed

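Ribosome-depleted RNA (Ribo-Zero Gold) was made into strand-specific libraries (NEBNext Ultra II Directional), per the labels' protocols. Per the submitters' processing notes, bcl2fastq, STAR 2.5.2b and hg19 were used. The authors deposited raw counts per gene symbol and repeat family. The counter, annotation and strand setting are not stated in the sources used. Members and gene lists were chosen with earlier results of these data known.

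Genes and families were fitted together with edgeR 4.0.16 (limma 3.58.1, R 4.3.3): filterByExpr by group (minimum count 10, minimum total count 15), TMM, 1 quasi-likelihood model of 3 groups over 6 libraries (3 residual and 5.41 prior degrees of freedom), and Benjamini-Hochberg adjustment over the 17163 tested. An adjusted p below 0.05 was a call. SE is the absolute log2 fold change over the root of F. Fold changes against the mean of both controls average the controls' log values. Profile distances used log2 CPM after adding 0.5 counts, for genes averaging 3 or more on that scale. DESeq2 1.42.0, other scaling, no filter, genes only, a replicate block, pooled controls and leaving out each library were alternatives. The code was tested on simulated data. Named were the 7 genes, TARDBP, up to 4 called list genes with the lowest p and all members of counts of 5 or fewer, the nearest 4 genes on each side, and the 5 nearest profiles. Results for some list genes are not reported here.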

Additional observations from a re-analysis of the deposited data

How the results depend on the processing

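The 270 alternative values of the 6 tested genes kept their direction where they were called, and 252 counted as unchanged. Against the controls, unchanged meant a move of less than the spread between libraries. Between the control hairpins it meant the same direction and the same side of the threshold. PDGFRA against the mean of both controls ran from 1.69 to 2.02 on leaving out 1 library at a time, and PDGFRB from -1.82 to -1.66 (log2). PDGFC against that mean ran from -0.05 to 0.07. With the control libraries pooled as 1 group, 2572 genes and families were called against the controls in place of 8269, and 29 of the 73 other named genes lost their call. That fit counts the difference between the control hairpins as spread. Between the control hairpins the calls ran from 4328 to 7344 on leaving out 1 library, against 7418. With 1 library left in a group, that library is assumed to vary like the others. DESeq2 called 7187 against the mean of both controls, and 4 of the 73 named genes lost their call.

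The difference between replicates 1 and 2 correlated between the TARDBP hairpin and control hairpin 2 at -0.21, and control hairpin 1 at -0.19. Between the control hairpins the correlation was 0.17. The 3 pairs of groups did not share a sign, so the replicate numbers were not taken as pairing. With a replicate block, 7643 genes and families were called against the mean of both controls, 7973 against control hairpin 2, 6745 against control hairpin 1 and 6670 between the controls. PDGFRA was then 1.86 and PDGFRB -1.74. Of the 876 values of other named genes under the alternatives, 805 kept their side of the threshold, 69 lost it, 2 gained it and 0 reversed. PDGFB, with at most 9 counts in a library, is limited by depth.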

Other observations

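TDP-43 is known to bind runs of UG in RNA. In the longest coding transcript of each gene (GENCODE v29), GTGTGT, counted on the transcript strand with overlaps, occurred 8 times in PDGFRA, 4 times in PDGFC, 3 times in PDGFA, 2 times each in PDGFRB, PDGFB and KIT, and 0 times in PDGFD. Per kb, 7.83% of 19669 genes were at least as rich as PDGFRA, 7.05% as PDGFA, 38.4% as PDGFRB and 35.7% as KIT. The part of these runs in the values with the TARDBP hairpin was not tested. Introns were not searched.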
